A study of Mus musculus with 12 samples.

Results

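Heat shock proteins and chaperonins are the genes that make the cell's protein folding machinery. The members were the protein-coding genes whose description in the deposited gene table starts with heat shock protein, DnaJ heat shock protein family or chaperonin containing TCP1, without the 5 endoplasmic reticulum genes HSPA5, HSP90B1, DNAJB9, DNAJB11 and DNAJC3. This gave 77 of the 58735 genes in the table. Of these, 60 had a mean of at least 0.5 FPKM over the 12 libraries and were tested, and 17 lay under that minimum. FPKM are fragments per kilobase of gene, scaled to a library size that, as given below, was not always the library's own reads. The study asked what the splicing factor SRSF1 does in osteosarcoma cells. The libraries, 3 in each of 4 groups, were made from RNA of U2OS, a line of human osteosarcoma cells. The blank group was U2OS cells for which the labels name no agent. The siSRSF1-2 and siSRSF1-3 groups had each received 1 of 2 small interfering RNAs against SRSF1, and the OE-LINC01134 group overexpressed the long noncoding RNA LINC01134. No library with a control siRNA or an empty vector was analysed here, so transfection and the agent cannot be told apart in any comparison with blank. The labels do not say whether the 3 libraries of a group came from separate cultures. The paper's supplementary methods name 2 biological replicates for a condition, and a heat map legend names 3 experimental repeats. The p-values thus measure only the spread between these libraries, which may be technical.

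As background, HSP70 proteins bind exposed stretches of unfolded chains and release them in a cycle driven by ATP. J-domain proteins (DNAJA, DNAJB and DNAJC) bring clients to HSP70 and start its ATP hydrolysis, HSP110 proteins exchange the nucleotide, and HSP90 completes the folding of kinases and hormone receptors. HSPD1 and HSPE1 form the folding chamber of mitochondria, CCT subunits form the ring-shaped chamber that folds actin and tubulin in the cytosol, and small HSPs hold unfolded proteins without ATP. The heat shock factor HSF1 switches on many of these genes together when proteins unfold.

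The libraries held between 26237763 and 32954539 gene-assigned reads (median 27538708), recovered from the steps of the FPKM values, and every tested member had at least 16 reads in each library. The library size used in the deposited FPKM was 0.712 times these reads in siSRSF1-3 1 and 0.888 times in siSRSF1-3 2. In the other libraries it was 0.990 to 1.09 times, so FPKM of siSRSF1-3 1 and 2 are scaled up against the rest. SRSF1 was at 35.9, 19.8 and 20.5 FPKM in blank, 7.09, 7.46 and 7.41 in siSRSF1-2 and 3.33, 6.81 and 7.90 in siSRSF1-3, so that both siRNA groups lay below blank (log2 differences of -1.72 and -2.09, exact permutation p = 0.1 for each, two-sided, the smallest p that 3 against 3 can give). LINC01134 was at 891, 1279 and 878 FPKM in OE-LINC01134 and between 0.497 and 1.11 in the other libraries. The mesenchymal markers VIM, COL1A1, SPARC, RUNX2 and FN1 were detected in every library (1.55 to 248 FPKM) whereas COL1A2 stayed at or below 0.0131, and the leukocyte, hepatocyte and endothelial markers did not pass 0.368. Of the epithelial markers, EPCAM reached 2.43, CDH1 0.862 and KRT19 0.24. Libraries of a group were not equally alike. Blank 2 and 3, OE-LINC01134 1 and 3, and all siSRSF1-2 libraries were within 1.88 to 2.45 times the sampling noise of each other (median over genes of the squared count difference over its expected variance), whereas blank 1, OE-LINC01134 2 and each siSRSF1-3 library differed from the others of their group by 13.7 to 45.6 times.

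**Figure D1:**
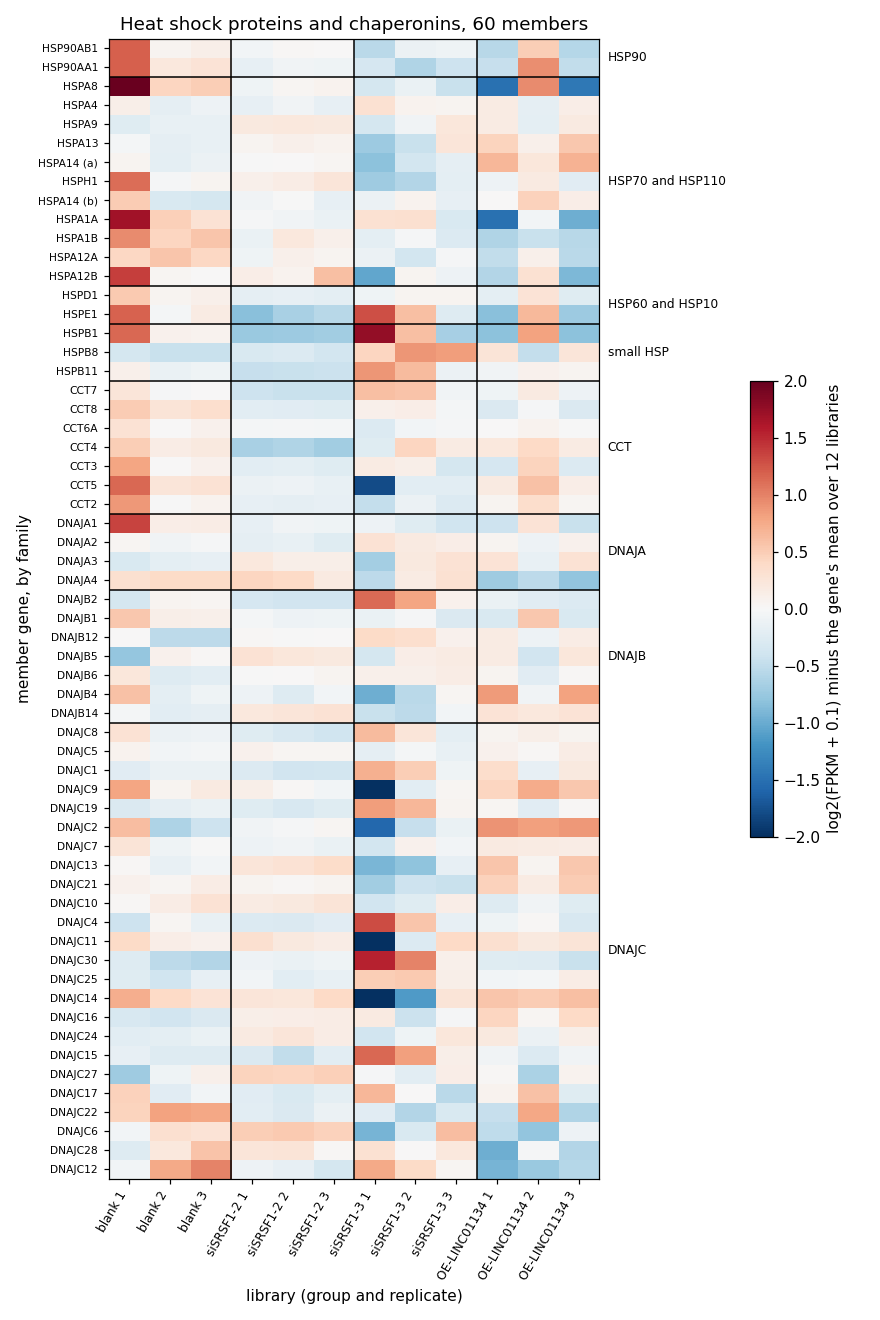
The 60 tested members (rows, by family and falling mean level) in the 12 libraries (columns). Colour gives log2(FPKM + 0.1) minus the gene's own mean over the libraries, with values beyond 2 in either direction drawn in the end colours. HSPA14 (a) and (b) are the 2 gene identifiers listed under that name. HSP90, HSPA8, HSPA1A and DNAJA1 are darkest red in blank 1, and siSRSF1-3 1 holds the lowest values of CCT5, DNAJC9, DNAJC11 and DNAJC14.

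HSP90AB1, the constitutive cytosolic HSP90, was the most abundant member with a mean of 527 FPKM over all libraries. HSPD1, CCT7, CCT8 and HSPB1 followed with means of 134, 132, 128 and 128, and these 4 did not differ beyond their spread between libraries. The inducible HSP70 copies HSPA1A, named after its values were seen, and HSPA1B had means of 4.31 and 2.48, below the constitutive HSPA8 with 77.4. HSPA1A and HSPA1B are near-identical copies, so reads could be split between them in an unknown way. The split is uncertain also for members with pseudogenes listed under their names. There were 26 for HSPE1, 17 for HSPD1, 16 for HSPA8 and 5 for HSP90AB1. The CCT subunits together had 14, with a summed mean of 6.81 FPKM. The 77 members together summed to between 1892 and 3703 FPKM in a library, with the highest sum in blank 1 and the next, 2743, in OE-LINC01134 2.

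With siSRSF1-2, 3 subunits of the CCT chamber fell, together with the mitochondrial co-chaperonin HSPE1, the small heat shock protein HSPB1 and the inducible HSPA1B. Mitochondrial HSP70 (HSPA9) and its J-domain partner DNAJA3 rose, with DNAJC16, DNAJB14, DNAJC13 and DNAJC24, the last named after its values were seen. In all, 6 of 60 members rose and 9 fell (limma on log2(FPKM + 0.1), adjusted p under 0.05 over all 17538 genes tested). Of all genes tested 14% rose and 12.8% fell, so that the members' shares of 10% and 15% lay near those of all genes. With an added minimum of 1 on the absolute log2 fold change 0 members rose and 2 fell (HSPB1 and HSPE1), against 4.95% of all genes in either direction. The median log2 fold change was -0.17 over the members and 0.02 over all genes. The balance of higher and lower calls depended on the scaling. With every library brought to the same sum, the median of all genes rose to 0.15. In that setting 13 members rose and 7 fell (21.7% and 11.7%), as did 21.1% and 8.93% of all genes. Of the 15 calls above, 13 were kept there in the same direction. With voom on the recovered reads 10 members rose and 10 fell, and 3026 and 2180 of all genes. In bulk RNA, fewer cells with a transcript and less of it per cell cannot be told apart.

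The CCT genes had the lowest values among the larger families, with a median log2 fold change of -0.52 and all 7 tested subunits below 0. CCT4, the subunit with the largest difference, was at 136, 107 and 110.3 FPKM in blank and at 61.4, 63.5 and 59.6 in siSRSF1-2. The groups did not overlap, and the log2 fold change was -0.93 (SE 0.102, adjusted p = 0.00303). CCT8 was at 178, 151 and 159 in blank against 109, 108 and 106 (log2 fold change -0.59, SE 0.0737, adjusted p = 0.00395). CCT7 was at 152, 126 and 129 against 95.7, 93.5 and 93.9 (log2 fold change -0.52, SE 0.0836, adjusted p = 0.0085). In these 3 genes, and also in the other 4 subunits, every siSRSF1-2 library lay below every blank library. This also held for members outside CCT that were not called, such as HSP90AB1, and how many of all genes it held for was not counted. The other 4 subunits did not pass the test: their log2 fold changes were -0.68 for CCT5, -0.51 for CCT3, -0.48 for CCT2 and -0.17 for CCT6A, with adjusted p between 0.0842 and 0.191. CCT4 overlaps COMMD1 on the opposite strand, and whether reads were counted by strand is not given in the sources used here.

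**Figure D2:**
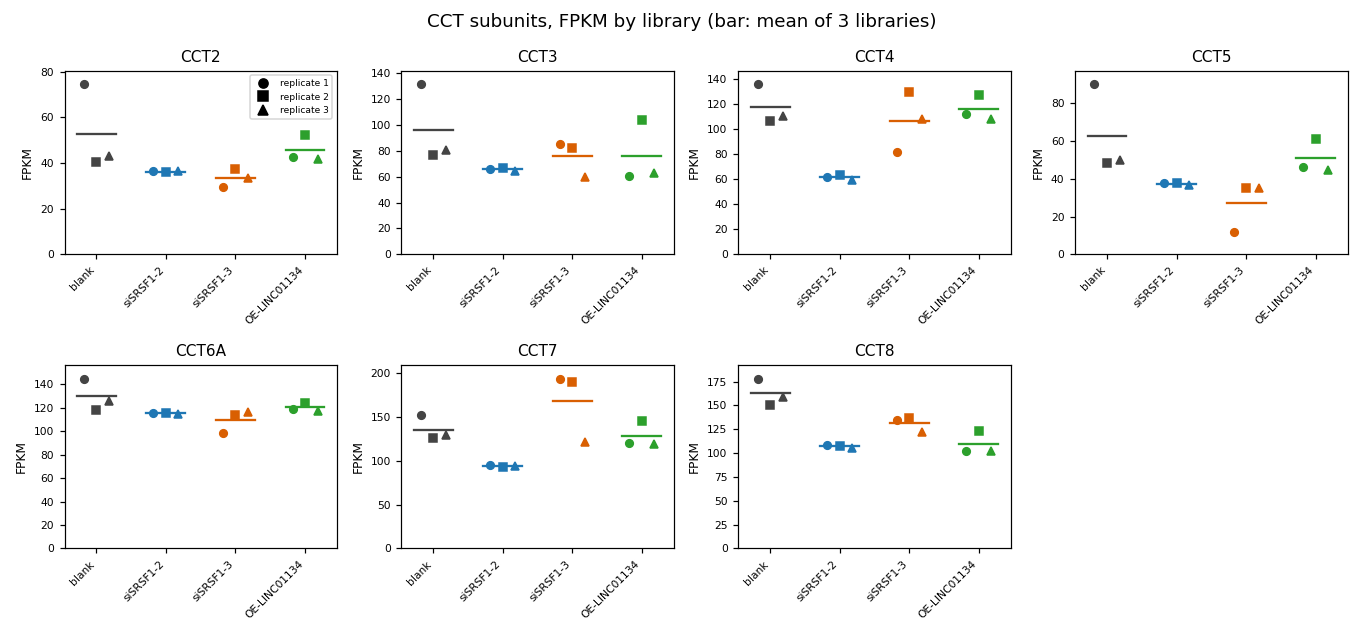
FPKM of the 7 tested CCT subunits (vertical axes from 0) in the 4 groups. Each symbol is a library, with its shape giving the replicate, and the bar is the mean of the 3 libraries. CCT4, CCT7 and CCT8 of siSRSF1-2 lie between 59.6 and 109, below every blank library, while CCT5 of siSRSF1-3 1 lies at 11.7.

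Among the other genes that fell, HSPB1, which caps unfolded proteins and actin filaments, was at 232, 112 and 109.9 FPKM in blank and at 62.8, 63.6 and 64.6 in siSRSF1-2 (log2 fold change -1.15, SE 0.291, adjusted p = 0.0329). HSPE1, the lid of the mitochondrial chamber, was at 48.7, 20.8 and 24.0 against 11.9, 13.6 and 14.5 (log2 fold change -1.12, SE 0.316, adjusted p = 0.0461). Both genes were highest in blank 1, and without that library the log2 fold changes were -0.80 and -0.75 and still passed (adjusted p = 4.02e-05 and 0.00194). HSPD1, the wall of the same chamber as HSPE1, had a log2 fold change of -0.41 and did not pass (adjusted p = 0.0649). HSPE1 and HSPD1 lie head to head and overlap on opposite strands. HSPB11, a component of the intraflagellar transport machinery despite its name, was at 7.80 to 8.02 FPKM against 9.82 to 11.6 in blank (log2 fold change -0.40, adjusted p = 0.017), and DNAJC22 was at 1.17 to 1.32 against 2.01 to 2.60 (log2 fold change -0.88, adjusted p = 0.00741). HSPA1B and HSPA12A, the latter named after its values were seen, fell by 0.59 and 0.44 on the log2 scale.

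Of the genes that rose, HSPA9, which pulls proteins into mitochondria, was at 49.8, 53.2 and 53.6 FPKM in blank and at 68.0, 68.4 and 68.1 in siSRSF1-2 (log2 fold change 0.39, SE 0.0536, adjusted p = 0.00549). DNAJA3, its J-domain partner, was at 12.2, 13.2 and 13.5 against 17.6, 16.4 and 16.3 (log2 fold change 0.37, SE 0.0683, adjusted p = 0.0124). DNAJC16 had the largest difference of the 6, with 2.96 to 3.16 FPKM in blank and 4.21 to 4.29 in siSRSF1-2 (log2 fold change 0.46, adjusted p = 0.00798). For DNAJB14, DNAJC13, which acts in endosomes, and DNAJC24, which serves diphthamide synthesis, the log2 fold changes were 0.39, 0.35 and 0.36. In each of these 6 genes the groups did not overlap. The groups also did not overlap in members that limma did not call, such as CCT6A (adjusted p = 0.191) and HSP90AB1 (adjusted p = 0.303). The share of all genes without overlap was not counted.

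Neither HSP90 nor the main cytosolic HSP70 was called with siSRSF1-2, although their 3 libraries lay below all blank libraries. HSPA8 was at 248, 84.1 and 88.5 FPKM in blank and at 59.0, 64.6 and 65.7 in siSRSF1-2 (log2 fold change -0.96, SE 0.415, adjusted p = 0.139). HSP90AA1, the stress-responsive HSP90, was at 189.8, 96.0 and 101 against 74.2, 79.4 and 78.1 (log2 fold change -0.67, adjusted p = 0.112), and HSP90AB1 at 1141, 513 and 542 against 480.1, 507 and 498 (log2 fold change -0.46, adjusted p = 0.303). Blank 1 held the highest value of each. Without blank 1, 17 members rose and 23 fell, all 15 of the former calls among them, against 27.4% and 24.7% of all genes. HSPA8 (-0.45), HSP90AA1 (-0.35) and CCT2, CCT3 and CCT5 were then among those that fell, and HSP90AB1 was not (-0.09, adjusted p = 0.106). The 5 libraries left in that setting were near-identical within each group, so its p-values rest on a spread of about 2 times the sampling noise. With the near-identical libraries averaged and counted once, siSRSF1-2 was left with a single averaged profile, so no count is given for it. In that setting 0 members passed by limma with siSRSF1-3 or OE-LINC01134 against blank. Of all genes, 0% passed with siSRSF1-3, and 0.0057% rose and 0% fell with OE-LINC01134. Almost no gene could pass there, so the count says little about the members.

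**Figure D3:**
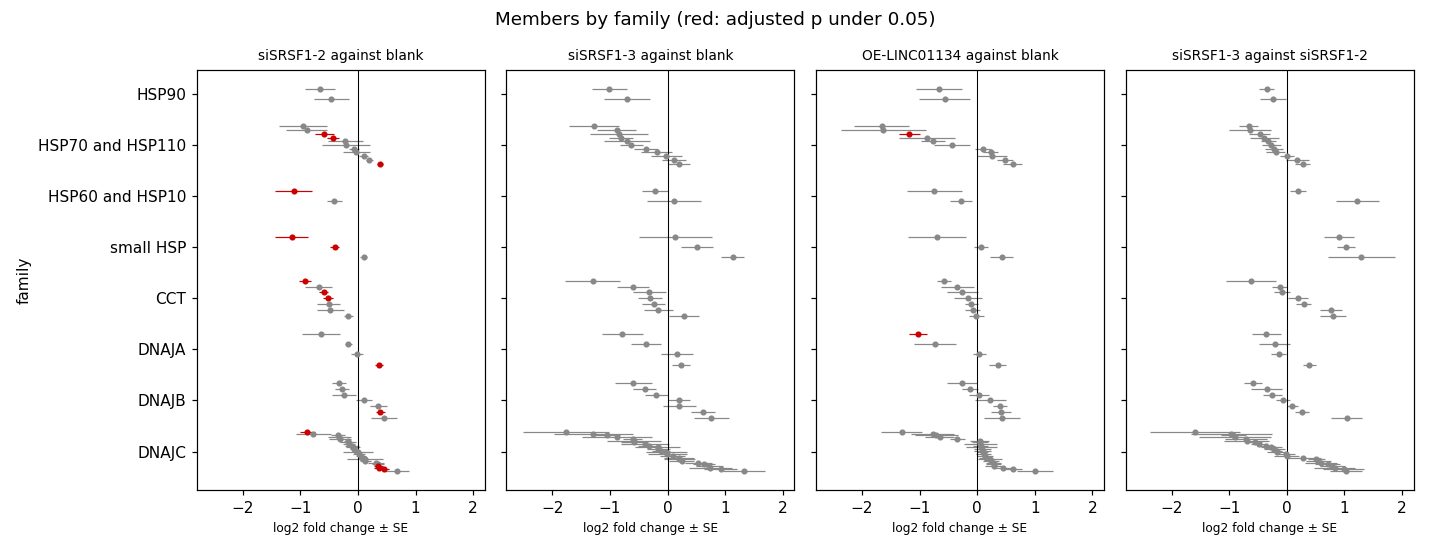
Log2 fold change of each tested member (point) with its standard error (bar), by family (vertical axis), in the 4 comparisons. Red marks an adjusted p under 0.05. The 15 red points with siSRSF1-2 and the 2 with OE-LINC01134 are the calls in the text, and the siSRSF1-3 panels hold none.

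With siSRSF1-3, the small heat shock protein HSPB8 had the smallest p of all members and just missed the threshold. HSPB8, which works with BAG3 in selective autophagy, was at 25.8, 24.2 and 24.3 FPKM in blank, at 44.5, 61.1 and 58.7 in siSRSF1-3, and at 26.7, 27.4 and 25.6 in siSRSF1-2. Every siSRSF1-3 library lay above every library of both other groups. The log2 fold change was 1.13 against blank (SE 0.193, adjusted p = 0.0501) and 1.03 against siSRSF1-2 (SE 0.155, adjusted p = 0.061). Against blank, limma called 0 members higher and 0 lower, while 0.342% of all genes rose and 0.935% fell. An unadjusted p under 0.05 was met by 7 members above and 9 below (11.7% and 15%), near the 15.2% and 13.6% of all genes. With the added minimum on the fold the count of members stayed 0, against 1.26% of all genes. The median log2 fold change was -0.18 over the members and -0.01 over all genes.

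The lack of calls went with a wide spread between the 3 siSRSF1-3 libraries. FPKM of siSRSF1-3 1 and 2 also rest on library sizes below their own reads (0.712 and 0.888 times). HSPB1 was at 357, 159.7 and 66.4 FPKM in siSRSF1-3 1, 2 and 3, and HSPE1 at 52.3, 32.5 and 17.9. In these FPKM, for both genes the first library lay above every blank library and the third below every blank library. Scaled to each library's own reads, the first would stay above every blank library for HSPB1 but not for HSPE1. For HSPB1 the third was close to siSRSF1-2. CCT7 was at 194, 190.3 and 121, and CCT5 at 11.7, 35.0 and 35.1. Some J-domain genes, named after their values were seen, differed more: DNAJC14 was at 0.341, 1.55 and 4.22, DNAJC11 at 1.21, 4.71 and 7.56, and DNAJC9 at 1.60, 9.16 and 10.96. DNAJC30 went the other way with 14.3, 9.72 and 5.19. DNAJC9 and DNAJC30 overlap the more abundant genes MRPS16 and BUD23, so reads may be shared.

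Between siSRSF1-3 1 and 3, 8 members differed by more than 1 upward on the log2 scale and 7 downward (13.3% and 11.7%, against 17.4% and 16.2% of all genes), so this spread was not larger in the members than elsewhere. Across the 60 members the difference between these libraries went with gene length, with a Spearman correlation of -0.446, and of -0.579 for libraries 2 and 3, against -0.181 and -0.212 over all 17538 genes. These are descriptions across genes that share the same libraries, and the part of gene length in the siSRSF1-3 values was not tested. Without siSRSF1-3 3, 10 members rose and 6 fell against blank, HSPB8 (1.07, adjusted p = 0.0135) and HSPA1B (-0.75, adjusted p = 0.0424) among them, against 19.1% and 16.8% of all genes. Without siSRSF1-3 1 the count was 0, against 0.0057% of all genes higher and 0.0684% lower.

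HSPA8, HSP90AA1 and DNAJA1 varied less between the 3 siSRSF1-3 libraries. HSPA8 was at 49.2, 57.0 and 45.8 FPKM (log2 fold change against blank -1.28, SE 0.43, adjusted p = 0.123). HSP90AA1 was at 65.5, 54.7 and 62.3 (log2 fold change -1.01, SE 0.305, adjusted p = 0.105). DNAJA1, the J-domain protein that serves HSPA8 in the cytosol, was at 42.4, 38.6 and 34.3, against 116, 49.7 and 50.4 in blank. All of these lay below every blank library, and none passed the test.

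The siRNAs were also set against each other. Of the members, limma called 0 higher and 0 lower in siSRSF1-3 against siSRSF1-2, while 0.0342% of all genes were higher and 0.0513% lower (0.0855% with the added minimum on the fold). An unadjusted p under 0.05 was met by 13 members above and 7 below (21.7% and 11.7%), against 21.9% and 20.2% of all genes. The median log2 fold change was -0.13 over the members and -0.02 over all genes. CCT4 and CCT7, which fell with siSRSF1-2, had log2 fold changes of 0.77 (SE 0.197, adjusted p = 0.08) and 0.80 (SE 0.22, adjusted p = 0.0808) in this comparison. HSPE1 and HSPB1 had 1.23 (SE 0.38) and 1.29 (SE 0.581). Without siSRSF1-3 3, 21 members were higher and 15 lower, all 4 of these genes among the higher ones, against 31.2% and 30% of all genes, and with siSRSF1-3 3 as the only library of its group, taken to vary like the siSRSF1-2 libraries, 11 were higher and 10 lower, against 13.5% and 13.1% of all genes, with CCT4 (0.82) and CCT7 (0.36) among the higher ones but not HSPB1 (0.06) and HSPE1 (0.43).

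With LINC01134 overexpressed, 2 members fell and 0 rose. HSPA1B was at 4.61, 3.21 and 3.49 FPKM in blank and at 1.51, 1.70 and 1.57 in OE-LINC01134 (log2 fold change -1.18, SE 0.178, adjusted p = 0.0431). DNAJA4, a cytosolic J-domain protein, was at 2.38, 2.50 and 2.51 against 1.12, 1.29 and 1.06 (log2 fold change -1.03, SE 0.158, adjusted p = 0.0445). The groups did not overlap in either gene, nor in some members that were not called, such as CCT8. Both called genes were past the added minimum on the fold, as 0.85% of all genes were. Of all genes 0.45% rose and 0.73% fell. Both calls were lost in each setting that left out blank 2, blank 3, OE-LINC01134 1 or OE-LINC01134 3, with adjusted p between 0.195 and 0.232. The median log2 fold change was 0.05 over the members and 0.05 over all genes.

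HSPA8 differed more but was not called. It was at 22.3, 120.4 and 23.1 FPKM in OE-LINC01134 against 248, 84.1 and 88.5 in blank, so that OE-LINC01134 2 lay inside the range of blank (log2 fold change -1.63, SE 0.733, adjusted p = 0.214). HSP90AA1 at 60.1, 159 and 59.2 and HSP90AB1 at 339.7, 700.2 and 336 were spread in the same way, as were HSPB1 at 59.8, 184 and 59.4 and HSPE1 at 11.9, 33.4 and 12.8. CCT8 was at 102, 123 and 102, below every blank library (log2 fold change -0.57, SE 0.122, adjusted p = 0.0687). Without both blank 1 and OE-LINC01134 2, a setting chosen after seeing the data, 26 members rose and 23 fell, against 33.9% and 25.8% of all genes. HSPA8 (-1.92), HSPB1 (-0.89), HSP90AA1 (-0.72), HSP90AB1 (-0.64) and CCT8 (-0.60) were then among those that fell, and HSPB8 (0.69) among those that rose. The 2 libraries left in each group were near-identical pairs.

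**Figure D4:**
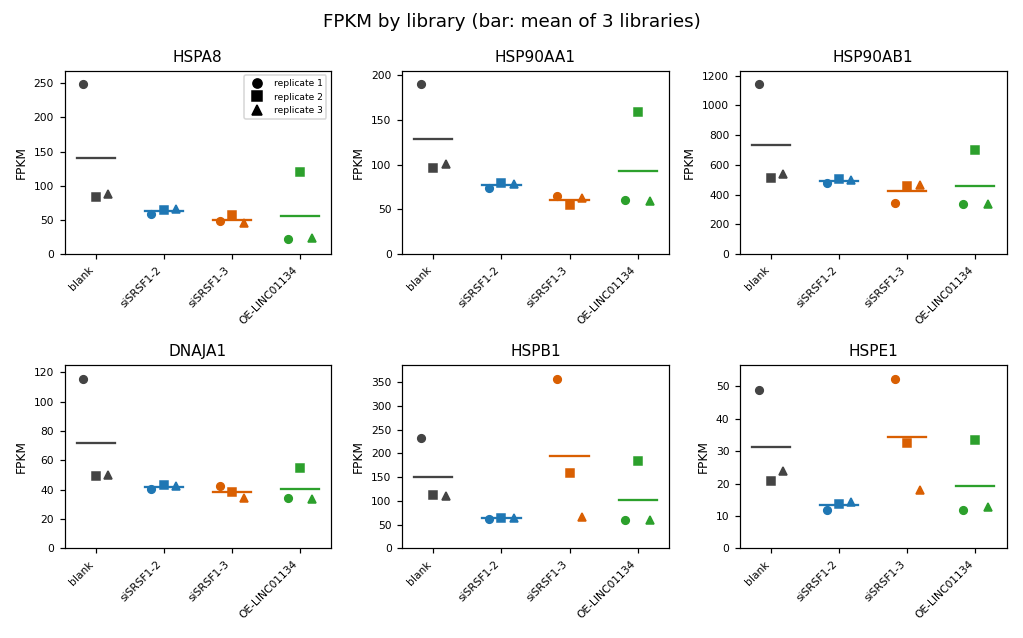
FPKM (vertical axes from 0) of 6 chaperones, which are not the 6 most abundant members, in the 4 groups. Each symbol is a library, with its shape giving the replicate, and the bar is the mean of the 3 libraries. Blank 1 and OE-LINC01134 2 lie above the other libraries of their groups in these 6 genes, for HSPA8 at 248 and 120.4 FPKM. Of members not shown that are more abundant than DNAJA1 and HSPE1, HSPD1 was also higher, at 1.37 and 1.40 times the mean of the others. HSPA9 was lower, at 0.934 and 0.774 times.

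Some abundant chaperones were higher in both blank 1 and OE-LINC01134 2 than in the other libraries of their groups, while other members were not. HSPA8 was 2.88 times as high in blank 1 as in the mean of blank 2 and 3 (means on the log2 scale), and 5.29 times as high in OE-LINC01134 2 as in the mean of OE-LINC01134 1 and 3. The corresponding ratios were 2.10 and 3.09 for HSPB1, 2.17 and 2.68 for HSPE1, 2.16 and 2.07 for HSP90AB1, 1.93 and 2.66 for HSP90AA1, and 2.31 and 1.62 for DNAJA1. All 7 tested CCT subunits lay above the others of their group in both libraries. Of the 60 members, 9 differed by more than 1 on the log2 scale upward in blank 1 and 0 downward (15% and 0%, against 3.94% and 7.14% of all genes). In OE-LINC01134 2 it was 8 upward and 0 downward (13.3% and 0%, against 6.13% and 5.2%). The median difference over the members was 0.25 in blank 1 (43 above 0, 17 below) and 0.07 in OE-LINC01134 2 (33 above 0, 27 below), where 6 of the 7 DNAJB genes lay lower. Over all genes the medians were 0.04 in blank 1 (9304 above 0, 8227 below) and -0.03 in OE-LINC01134 2 (8280 above 0, 9238 below). HSPB8 in OE-LINC01134 2 was 0.603 times, and HSPA4 0.796 times, the mean of the other 2 libraries. Genes outside the members were higher in the same libraries, chosen here after their values were seen: TUBB was at 571 FPKM in blank 1 against 225 and 233, and at 374 in OE-LINC01134 2 against 145 and 141, and VIM at 248 in OE-LINC01134 2 against 68.7 and 69.4. A difference over 1 upward in both libraries was seen in 6 members, 10% of the 60, against 0.798% of all genes. The 6 were HSPA8, HSPB1, HSPE1, HSP90AB1, HSPA1A and HSPA12B, the last 2 named after their values were seen.

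Across the 60 members the differences of these libraries had a Pearson correlation of 0.577 (Spearman 0.541), and across all 17538 genes 0.0988 (0.13). The libraries compared share no sample between the groups, but genes are not independent of each other, and no p is given. HSF1, the factor that drives the heat shock response, was at 43.7, 40.0 and 38.7 FPKM in blank and 41.9, 44.3 and 42.8 in OE-LINC01134. The activity of the HSF1 protein was not measured. SRSF1 was highest in blank 1 with 35.9 FPKM, but not in OE-LINC01134 2 with 29.6. The labels give nothing that distinguishes these libraries from the others of their groups, and what the libraries share was not tested.

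**Figure D5:**
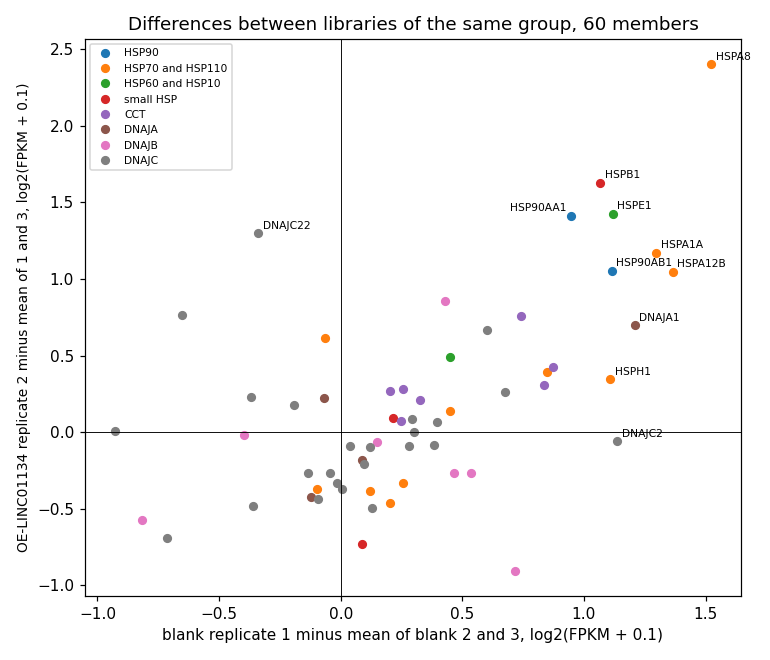
Difference of blank 1 from the mean of blank 2 and 3 (horizontal) and of OE-LINC01134 2 from the mean of OE-LINC01134 1 and 3 (vertical), in log2(FPKM + 0.1), for the 60 tested members, coloured by family. Members past 1 on either axis are named. HSPA8 lies farthest out, at 1.52 and 2.40.

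Over the 12 libraries, the members whose level followed HSPA8 most closely were HSP90AB1, DNAJB1 and DNAJA1, with Pearson correlations of 0.942, 0.911 and 0.906 in log2(FPKM + 0.1). For HSP90AA1 they were DNAJB1, HSP90AB1 and DNAJA1 (0.937, 0.902 and 0.9), and for CCT2 they were CCT6A, CCT5 and HSP90AA1 (0.927, 0.861 and 0.812). The libraries fall into groups and some stand apart, so these values carry no p. DNAJB1, the inducible partner of HSP70, was at 42.1 FPKM in blank 1 and 42.4 in OE-LINC01134 2, and between 23.4 and 31.4 in the other 10 libraries. DNAJA2, a second cytosolic partner of HSPA8, did not follow this pattern, at 16.1 to 23.5 in all libraries. HSPA4, an HSP110 protein, was at 61.3 to 85.8, with no call in any comparison.

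The CCT subunits are assembled in equal numbers, and their FPKM were not level with each other. FPKM also depend on the listed gene length, from 2830 bases for CCT4 to 5839 for CCT5. Levels of different subunits can thus be compared only roughly. The ratio of the highest to the lowest of the 7 was 2.39 in blank 1, between 2.78 and 3.72 in 9 libraries, 5.43 in siSRSF1-3 2 and 16.5 in siSRSF1-3 1, where CCT5 was the lowest. TCP1, the eighth subunit, is left out by the naming rule. It was at 78.6, 48.2 and 50.9 FPKM in blank and at 48.0, 47.9 and 47.3 in siSRSF1-2 (log2 fold change -0.27, adjusted p = 0.316), and at 71.2, 74.9 and 69.5 in OE-LINC01134 (0.31, adjusted p = 0.335). The testis subunits CCT6B and CCT8L2 stayed under 0.224 FPKM in every library.

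The genes that work with the members were followed in lists. In the 3 comparisons other than siSRSF1-2 against blank, 0 of these genes passed by limma, although an unadjusted p under 0.05 was met by 0 to 11 genes of a list above and 0 to 5 below. Of all genes, 14% to 21.9% met it above and 12.3% to 20.2% below in these comparisons. The counts with siSRSF1-2 that follow stand against 14% of all genes that rose and 12.8% that fell. With siSRSF1-2, 4 of the 11 tested clients of CCT fell and 0 rose, among them TUBA1A (21.6, 35.3 and 34.1 FPKM in blank against 10.1, 10.3 and 10.3, log2 fold change -1.52, adjusted p = 0.00414), TUBB2B (-1.29, adjusted p = 0.000951) and TUBG1 (-0.92, adjusted p = 0.0164). All 11 had a value below 0, with a median log2 fold change of -0.92. Of the 16 prefoldin subunits and CCT partners 5 fell and 0 rose, with the smallest adjusted p in the prefoldin subunit PFDN4 (-0.42, adjusted p = 0.00771), the CCT regulator TXNDC9 (-0.40, adjusted p = 0.0231) and the chaperonin-like MKKS (-0.36, adjusted p = 0.0241). Of the 18 HSP90 co-chaperones 3 fell and 0 rose: PIH1D1 (-0.45), the kinase adaptor CDC37 (-0.55) and NUDC (-0.65). With siSRSF1-3 against blank the signs differed between these lists. The CCT clients had 9 of 11 below 0 (median -0.75), and the prefoldin list had 12 of 16 above 0 (median 0.39). The HSP90 co-chaperones had 9 above and 9 below. Between siSRSF1-3 and siSRSF1-2, 11 of the 16 in the prefoldin list were higher and 1 lower at an unadjusted limma p under 0.05 (all genes: 21.9% and 20.2%).

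Of the 16 co-chaperones and nucleotide exchange factors of HSP70, 3 fell and 0 rose with siSRSF1-2. BAG4 was at 3.76 to 4.93 FPKM in blank and at 1.51 to 1.95 in siSRSF1-2 (log2 fold change -1.22, adjusted p = 0.00363). GRPEL1, the nucleotide exchange factor of HSPA9, had -0.37 (adjusted p = 0.0297), against 0.39 in HSPA9 itself, and BAG3, the partner of HSPB8, had -0.49 (adjusted p = 0.0354). HSF1 did not pass in any comparison (log2 fold changes -0.16, 0.30, 0.08 and 0.45 for siSRSF1-2, siSRSF1-3 and OE-LINC01134 against blank and for siSRSF1-3 against siSRSF1-2, adjusted p from 0.1 to 0.64). Of the 5 tested heat shock factors and binding proteins 1 fell and 0 rose with siSRSF1-2, namely HSBP1, which holds HSF1 in check (-0.54, adjusted p = 0.00926).

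Of the 12 mitochondrial chaperones and proteases 3 rose and 0 fell with siSRSF1-2, with a median log2 fold change of 0.08, 8 genes above 0 and 4 below. The 3 were the import motor subunit PAM16 (0.59, adjusted p = 0.026) and the membrane proteases SPG7 (0.31, adjusted p = 0.0398) and AFG3L2 (0.43, adjusted p = 0.0409). Of the 5 endoplasmic reticulum chaperones that the naming rule leaves out, DNAJB9 (0.45) and DNAJC3 (0.38) rose and HSP90B1 (-0.91, adjusted p = 0.0013) fell. Of 12 other stress-induced genes 1 rose and 3 fell. The 3 were the small heat shock protein CRYAB, whose name keeps it outside the members, with 46.3, 28.3 and 29.9 FPKM in blank against 8.71, 8.82 and 8.47 (log2 fold change -1.96, adjusted p = 0.00226), GADD45B (-0.61, adjusted p = 0.00341) and the ubiquitin gene UBB (-0.55, adjusted p = 0.00509). CRYAB was, like HSPB1, highest in blank 1 and in OE-LINC01134 2 (26.8 against 13.3 and 13.2) within these groups.

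The 17 members under the minimum included the strictly stress-inducible HSPA6 with a mean of 0.381 FPKM, between 4 and 54 reads per library. HSPA6 was at 0.228, 0.668 and 0.696 FPKM in blank, so it was lower in blank 1, where HSPA8 and HSPB1 were higher, than in the other blank libraries, and it was lower in OE-LINC01134 2 (0.0618) than in OE-LINC01134 1 and 3 (0.233 and 0.118). The muscle small HSPs HSPB2, HSPB3, HSPB6 and HSPB7 were detected at means of 0.165 to 0.270 FPKM. HSPB3 was at 0.967 FPKM (21 reads) in blank 1 and 0.7003 (15 reads) in OE-LINC01134 2 and at or under 0.195 in every other library, and HSPB2, which lies beside the more abundant CRYAB, was also highest in those libraries (0.622 and 0.521). DNAJB8, DNAJC5B and CCT8L2 had 2, 1 and 1 reads in all 12 libraries together.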

How the data were processed

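The authors deposited FPKM for each gene in 12 libraries. According to the supplementary methods mRNA was selected with poly-T beads in an NEBNext kit, whereas the labels name a SMARTer kit. The labels give mouse and GRCm38 (mm10), but the identifiers are human, so samples were treated as human and no coordinate is given. The methods place transient transfection in HOS cells. The aligner and counter are not given in the sources used here. FPKM came out as whole reads for every value (largest deviation 0.000153). Genes with a mean of at least 0.5 FPKM (17538) were tested as log2(FPKM + 0.1) with limma 3.58.1 (R 4.3.3), with a variance trend and Benjamini-Hochberg adjustment over all genes. Each comparison was fitted on its own 6 libraries. Fold changes are on the log2(FPKM + 0.1) scale, which understates the change of low genes. The fit was also run on simulated libraries of equal spread with none standing apart, so that run does not cover the uneven groups here. The members and lists were chosen with earlier results of these data known. Named were the 2 highest members of each family, all CCT subunits, the 5 members with the smallest adjusted p in each direction among the calls, calls past a 1 log2 minimum, at most 3 genes a list, SRSF1, LINC01134, TCP1 and HSF1. Alternatives covered pseudocount, filter, scaling, shared or blocked fits, voom on recovered reads and left-out libraries.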

Additional observations from a re-analysis of the deposited data

How the results depend on the processing

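Same-numbered libraries did not deviate together (correlations of -0.081 to 0.042 over genes), so the replicate block counts only as an alternative. With it 2 members rose and 4 fell with siSRSF1-2 (7.1% and 7.01% of all genes). With OE-LINC01134 0 fell (0.0171% of all genes). Near-identical libraries averaged left a single profile of siSRSF1-2, for which no count is given, and gave 0 lower with OE-LINC01134 (0% of all genes). With siSRSF1-2, the count of 6 higher and 9 lower became 0 and 2 with the added minimum on the fold. It became 0 and 2 in one fit over 12 libraries (1.74% and 2.01% of all genes). The higher count became 13 with the same sum in every library (21.1% of all genes) and 10 with voom. The median of -0.17 became -0.03 with the same sum. With siSRSF1-3 against blank, one fit called 7 higher and 7 lower (14.9% and 12.9% of all genes), a pseudocount of 1 or a minimum of 1 FPKM called 1 higher, and the median of -0.18 became -0.61 with the same sum, -0.43 with the own read total, -0.45 with voom and -0.05 without blank 1 and siSRSF1-3 1. With OE-LINC01134 the 2 lower calls became 1 without the filter, 1 without the variance trend, 6 in one fit (3.97% of all genes) and 23 without blank 1 and OE-LINC01134 2, where 26 were higher. For siSRSF1-3 against siSRSF1-2, one fit called 11 higher and 3 lower (16.8% and 15.5% of all genes), siSRSF1-3 3 alone called 11 and 10 with a median of 0.02, and the median of -0.13 became -0.7 with the same sum, -0.44 with the own total and -0.44 with voom. These scalings brought the median of all genes in siSRSF1-3 to -0.43 (same sum) and -0.26 (own total) against blank and to -0.57 and -0.31 against siSRSF1-2. Leaving out 1 library gave 1 to 17 higher and 4 to 23 lower with siSRSF1-2 (median -0.2 to -0.08), 0 to 10 and 0 to 6 with siSRSF1-3 (-0.23 to -0.11), 0 to 10 and 0 to 7 with OE-LINC01134 (0 to 0.1), and 0 to 21 and 0 to 15 between the siRNAs (-0.14 to -0.07). Of all genes, leaving out 1 library called 5.16% to 27.4% higher and 5.27% to 24.7% lower with siSRSF1-2. The ranges were 0% to 19.1% and 0% to 16.8% with siSRSF1-3, and 0.0057% to 13.5% and 0% to 12% with OE-LINC01134. Between the siRNAs they were 0% to 31.2% and 0% to 30%. The cause of these changes was not tested.

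Among the members named, these log2 fold changes turned direction, none of them called under the alternative that turned it. For siSRSF1-2 against blank they were with the same sum HSPA4 0.06 and DNAJA4 0.11, with the own read total DNAJA4 0.02, with voom DNAJA4 0.01. With 1 library left out the ranges were DNAJA4 -0.07 to 0.06 and HSPA4 -0.14 to 0.01. For siSRSF1-3 against blank they were with the same sum CCT7 -0.16, DNAJA2 -0.22, DNAJC8 -0.25, HSPE1 -0.34, HSPA4 -0.24, HSPB1 -0.31, HSPA9 -0.33, DNAJC16 -0.19 and DNAJA3 -0.28, with the own read total DNAJA2 -0.03, DNAJC8 -0.06, HSPE1 -0.15, HSPA4 -0.06, HSPB1 -0.12, HSPA9 -0.14, DNAJC16 -0.01 and DNAJA3 -0.10, with voom DNAJA2 -0.03, DNAJC8 -0.06, HSPE1 -0.16, HSPA4 -0.06, HSPB1 -0.12, HSPA9 -0.14, DNAJC16 -0.01 and DNAJA3 -0.10. Further values were with near-identical libraries averaged HSPE1 -0.08 and HSPB1 -0.04, without both libraries that stand apart CCT4 0.13 and HSPB1 -0.11, with siSRSF1-3 3 alone CCT7 -0.15, DNAJC8 -0.22, HSPE1 -0.69, HSPB1 -1.09, DNAJB14 0.09 and HSPB11 -0.08. With 1 library left out the ranges were CCT4 -0.31 to 0.02, DNAJA3 -0.02 to 0.46, DNAJC8 0.00 to 0.41, HSPA9 -0.03 to 0.26, HSPB1 -0.46 to 0.75 and HSPE1 -0.26 to 0.51. For OE-LINC01134 against blank they were with the same sum CCT7 0.01 and CCT4 0.07, with near-identical libraries averaged DNAJA2 -0.01 and DNAJC8 -0.01, without both libraries that stand apart CCT4 0.02 and CCT2 0.02. With 1 library left out the ranges were CCT2 -0.32 to 0.12, CCT4 -0.09 to 0.09, CCT5 -0.41 to 0.03, CCT7 -0.17 to 0.01 and DNAJC8 -0.02 to 0.18. For siSRSF1-3 against siSRSF1-2 they were with the same sum CCT8 -0.29, CCT3 -0.39, DNAJA2 -0.18, DNAJC8 -0.03, HSPD1 -0.39 and HSPA4 -0.30, with the own read total CCT8 -0.02, CCT3 -0.11, HSPD1 -0.11 and HSPA4 -0.03, with voom CCT8 -0.02, CCT3 -0.11, HSPD1 -0.11 and HSPA4 -0.03. Further values were with siSRSF1-3 3 alone CCT6A 0.01, CCT3 -0.13, HSPA9 0.02 and DNAJA3 0.14. With 1 library left out the ranges were DNAJA3 -0.39 to 0.09 and DNAJB1 -0.13 to 0.00.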
